A study of Mus musculus with 44 samples.

Results

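Rtp4, Oasl2 and Oas1a are interferon-stimulated genes, and their rows were read from a table of single cells labelled as primary osteomacs, the macrophages of bone surfaces. They were chosen by name, as 3 of the 3613 genes in the table, to ask whether they were high in the same cells or independently of each other. All cells came from C57BL/6J mice. Neonatal calvarial cells, a mixed population from the skull bone of newborn mice, were cultured for 16 h, either with 50000 megakaryocytes or without them, and cells positive for CD45 and F4/80 and negative for CD41 were sorted. The 20 cells labelled as cultured with megakaryocytes all came from plate 7 and are called with-MK cells. The 24 cells labelled as cultured without them all came from plate 3 and are called without-MK cells. In the latter group the title of each cell mentions megakaryocytes too, which conflicts with the treatment label. Each group counts as 1 sample, since the labels name no culture or animal. Treatment, plate and whatever else differs between the plates cannot be told apart. The comparison of the groups therefore has no replicate check and no test, and where a pair of values is given the with-MK cells come first.

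Interferons are secreted proteins that bind receptors on the cell surface. The receptors activate JAK kinases, which phosphorylate STAT proteins, and a complex of STAT proteins with IRF9 binds the interferon-stimulated response element in front of many genes. Oas1a encodes an oligoadenylate synthetase, an enzyme that is switched on by double-stranded RNA and makes the short oligoadenylates that activate the ribonuclease RNase L. Oasl2 encodes a protein of the same family with ubiquitin-like domains. Rtp4 encodes a receptor transporter protein, a chaperone that helps some G-protein-coupled receptors reach the cell surface, and it is induced by type I interferon. In macrophages such genes form part of the antiviral response.

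In the GENCODE M21 annotation of the mm10 build, Rtp4 is a protein-coding gene on chromosome 16 at 23520291 to 23614222, plus strand, with 4 exons in its longest transcript. Its span overlaps those of Masp1 on the other strand and of Gm45338 on the same strand, and whether the counting used strand is not given in the sources used here, so some Rtp4 reads could belong to these genes. Oasl2 lies on chromosome 5 at 114896936 to 114912234, plus strand, with 6 exons. Oas1a lies on the same chromosome at 120896256 to 120907521, minus strand, with 7 exons. Oasl2 and Oas1a are 5.98 Mb apart, so they are not close neighbours. The family copies Oasl1 and Oas1g start within 11006 bases of the end of Oasl2 and 8643 bases of that of Oas1a, respectively, and reads of such related copies could have been split between them.

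The 250 bases before the annotated start are shown for Oasl2 and Oas1a, the members with an entry in the RefSeq promoter table (build GRCm38.p6). They are printed 5′ to 3′ on the strand of the gene because they differ in the response element. Capitals mark matches to the core of the interferon-stimulated response element, searched as GAAA, 2 bases of any kind and GAAA again.
Oasl2, chr5:114896684-114896933, plus strand: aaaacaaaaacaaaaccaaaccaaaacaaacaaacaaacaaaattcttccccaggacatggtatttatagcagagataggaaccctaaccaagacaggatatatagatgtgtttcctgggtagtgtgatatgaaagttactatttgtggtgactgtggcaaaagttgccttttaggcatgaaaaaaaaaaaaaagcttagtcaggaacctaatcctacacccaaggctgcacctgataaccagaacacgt
Oas1a, chr5:120907526-120907775, minus strand: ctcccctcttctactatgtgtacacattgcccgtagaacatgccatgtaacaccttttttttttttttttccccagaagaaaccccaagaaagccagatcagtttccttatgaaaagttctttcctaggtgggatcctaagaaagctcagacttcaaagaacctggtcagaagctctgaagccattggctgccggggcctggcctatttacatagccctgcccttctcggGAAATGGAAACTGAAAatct
The Oas1a sequence holds 2 such matches, which overlap each other, on the gene's strand, at −20 to −11 and −14 to −5 from the start. It also holds 1 match to TTCNNNGAA, the gamma-activated site bound by STAT dimers, at −98 to −90. The Oasl2 sequence holds no match to either motif, which says only that these letters are not in this window. With both strands searched, the response element core was in the same window of 936 of 27025 genes (3.46%) and in 18 of 56 of the other interferon-stimulated genes that have an entry (32.1%). TTCNNNGAA was in 2197 genes (8.13%) and in 3 of those 56 (5.36%). A match describes letters and is no evidence of binding.

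Shorter stretches around the matches are shown for 3 other genes named below, of the Oas family and the Trim30 family, all on the minus strand of GRCm38.p6.
Oas1g, chr5:120887614-120887641: cccttctcggGAAATGGAAACTGAAAat
Oas3, chr5:120777715-120777744: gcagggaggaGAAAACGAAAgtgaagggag
Trim30a, chr7:104465210-104465239: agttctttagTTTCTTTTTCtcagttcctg
Oas1g, the close copy of Oas1a, had 2 matches on its own strand as Oas1a did, and Oas3 had 1. In Trim30a, where 1 of 2 promoter entries had a match, it lies on the opposite strand, so the capitals show its complement.

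The cells were checked against marker genes before the members were compared. Of 24 macrophage markers, 22 were listed, and their summed level in CPM, the reads of a gene scaled to 1e+06 library reads, was 8787 to 65462 in with-MK cells and 1.92 to 902 in without-MK cells. Of 20 osteoblast and fibroblast markers, 7 were listed, with sums of 3.88 to 196 and 4276 to 98080. All 22 macrophage markers were at least 2-fold higher and all 7 stromal markers at least 2-fold lower in with-MK cells. Over all genes, 794 of 3268 were higher and 925 lower by that limit. Of the macrophage markers, 6 had no read in any without-MK cell. The label of osteomacs thus fits the macrophage transcripts of the with-MK cells and goes against the transcripts of the without-MK cells, and every comparison of the groups is between cells rich in macrophage transcripts and cells rich in stromal ones. The part of this difference in the results was not tested. Of 18 megakaryocyte and platelet markers, 3 were listed (Pf4, Plek and Thbs1), and Itga2b, which encodes CD41, is not among the listed genes. Their sums were 2.83 to 9081 and 54.8 to 19199 CPM. Library reads were 69181 to 1212604 (median 834834) and 270537 to 714465 (median 527930). The least deeply sequenced were with-MK cell 11, at 69181 reads, and with-MK cell 16, at 71585. Cell 16 also had Malat1 at 245233 CPM, against a with-MK median of 6623, and the lowest macrophage sum of the group, 8787 CPM. Its missing reads need care. In cell 11 a single read was worth 14.5 CPM, the level of its 1 Oas1a read.

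All 3 genes were read in most with-MK cells and in few without-MK cells, where no cell had more than 1 read of any of them. Of the 20 with-MK cells, 16 had Rtp4 reads (80%, exact Clopper-Pearson 95% interval 56.3 to 94.3%), against 1 of the 24 without-MK cells (4.17%, 0.105 to 21.1%). Its level in with-MK cells ran from 0 to 1024 CPM around a median of 41.8, and it reached 1.53 in the without-MK cell with its only read. The highest cells were 19 (1024 CPM), 11 (968.5), 20 (528), 5 (488) and 4 (464), while cells 2, 9, 12 and 18 had no read. Rtp4 was thus spread over a wide range among cells of 1 plate, with 13 cells at or above 10 CPM and 7 below. Cell 16 was among the 13 through 1 read, worth 13.97 CPM at its depth. Over the group there were 3389 reads (exact Poisson 95% interval 3276 to 3505) against 1 (0.0253 to 5.57), which is 217 and 0.0805 CPM. The ratio of pooled levels was 2690, with an exact 95% counting interval of 482.5 to 106296, a log2 ratio of 11.39. In the deposited signal, the mean over cells was 359 ± 533 (SD, n = 20 cells) and 0.105 ± 0.517 (SD, n = 24 cells).

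Oasl2 was read in 13 of the 20 with-MK cells (65%, 40.8 to 84.6%), against 3 of the 24 without-MK cells (12.5%, 2.66 to 32.4%). In with-MK cells it ran from 0 to 1098 CPM around a median of 43.9, and in without-MK cells to 3.70. Cell 15 (1098 CPM) and cell 5 (689) stood above cell 8 (347), and cells 1, 9, 13, 14, 16, 18 and 19 had no read. Cell 19, the highest for Rtp4, was thus among the cells without an Oasl2 read. Summed over the group, this came to 2405 reads (2310 to 2503) against 3 (0.619 to 8.77), which is 154 and 0.242 CPM. Their ratio was 636, with a counting interval of 217.5 to 3088, a log2 ratio of 9.31. The mean deposited signal was 273 ± 511 and 0.607 ± 1.71.

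Oas1a was read in 12 of the 20 with-MK cells (60%, 36.1 to 80.9%), against 2 of the 24 without-MK cells (8.33%, 1.03 to 27%). In with-MK cells it ran from 0 to 472 CPM around a median of 19.2, and in without-MK cells to 1.90. Cell 6 led with 472 CPM, ahead of cell 10 (269.5), cell 14 (266), cell 4 (238) and cell 13 (204). Cell 6 had 7.07 CPM of Rtp4, so the leading cell again differed from gene to gene. The group totals were 1543 reads (1467 to 1622) against 2 (0.242 to 7.23), which is 98.7 and 0.161 CPM. Their ratio was 612.5, with a counting interval of 169 to 5062, a log2 ratio of 9.26. The mean deposited signal was 280 ± 402 and 0.465 ± 1.58.

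**Figure D1:**
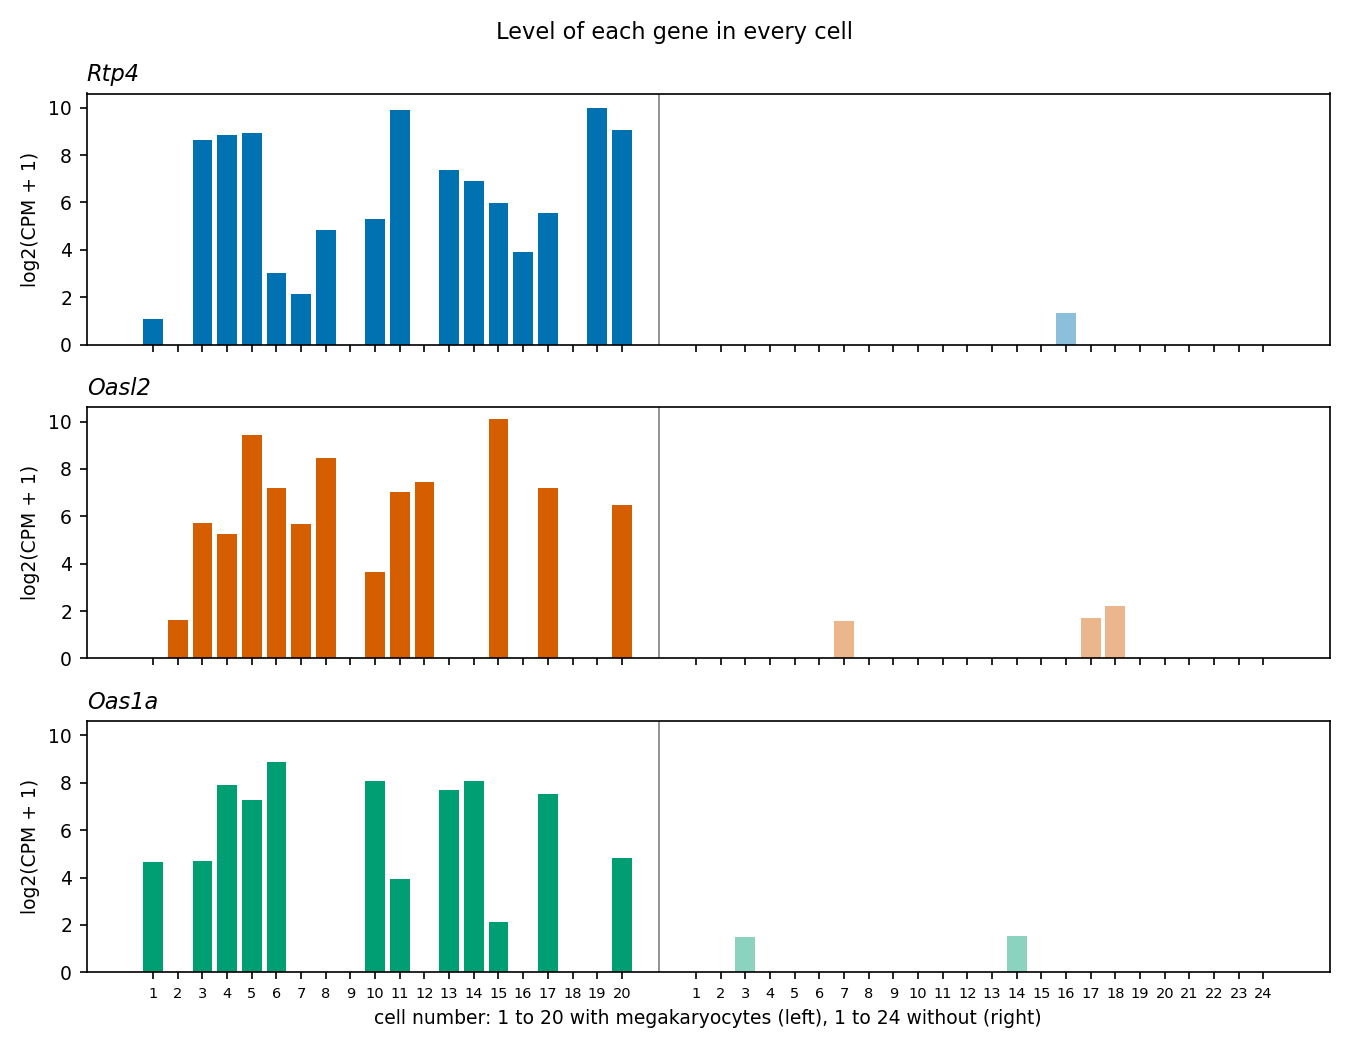
Level of Rtp4, Oasl2 and Oas1a in every cell as log2(CPM + 1), 1 bar per cell, with the 20 with-MK cells on the left and the 24 without-MK cells on the right of the line. The highest bars are in cell 19 for Rtp4, cell 15 for Oasl2 and cell 6 for Oas1a, and no bar of a without-MK cell exceeds 3.70 CPM.

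The mean of log2(CPM + 1) was 5.07 ± 3.62 (SD, n = 20 cells) and 0.06 ± 0.27 (SD, n = 24 cells) for Rtp4. It was 4.26 ± 3.68 and 0.23 ± 0.63 for Oasl2, and 3.78 ± 3.56 and 0.13 ± 0.43 for Oas1a. Among the 3271 genes read in 10 or more of the 44 cells, 24.4% were at least 2-fold higher on pooled levels in with-MK cells, as all 3 genes were. Each of the 3 reached that limit of 10 cells through the with-MK cells alone. A few cells held much of each gene's reads. Cell 19 held 33.3% of the Rtp4 reads, cell 5 34.7% of the Oasl2 reads and cell 6 21.7% of the Oas1a reads. Without these cells the with-MK levels were 155, 109 and 81.0 CPM, against 217, 154 and 98.7. When the without-MK cell with the most reads of the gene was left out as well, the log2 ratio went from 11.39 to 9.25 for Rtp4 and from 9.26 to 9.91 for Oas1a. For Rtp4 the without-MK sum was then 0 and 3 reads were put in its place as a floor for the group, so that value is a lower bound.

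Low reads need care in these data, since the stromal gene Sparc, which had 75589 reads in without-MK cells, also had 1 to 7 reads in each of the 20 with-MK cells. The share of cells with a read of Sparc was therefore 20 of 20 in the cells with macrophage transcripts, where its median was 3 reads. In with-MK cells, 3 of the 16 cells with an Rtp4 read, 1 of the 13 with an Oasl2 read and 2 of the 12 with an Oas1a read had only 1 to 4 reads. All reads of the 3 genes in without-MK cells were at that low level too. Thinning of every cell to a depth of 310000 reads dropped 2 cells from each group. Rtp4 was then read in 14 of the 18 with-MK cells left and in 0 of the 22 without-MK cells left, which allows a share of up to 13.6% by the limit of 3 cells. The thinned counts were 11 and 1 for Oasl2 and 10 and 1 for Oas1a.

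The cells with reads of the 3 genes overlapped in part. In with-MK cells, 9 of 20 had reads of all 3 (45%, 23.1 to 68.5%), 5 had reads of a pair, 4 of a single gene, and cells 9 and 18 had none. The cells with all 3 were 3, 4, 5, 6, 10, 11, 15, 17 and 20. Cells 7 and 8 had Rtp4 and Oasl2, and cells 1, 13 and 14 had Rtp4 and Oas1a. Cells 16 and 19 had Rtp4 alone, and cells 2 and 12 had Oasl2 alone. No cell had Oas1a without Rtp4. In without-MK cells, 18 of 24 had no read of any of the 3, 6 had a read of 1 gene, and none had more (0 of 24, with an exact 95% interval of 0 to 14.25%; a limit of 3 cells is 12.5%). With at least 5 reads required, 7 with-MK cells had all 3 genes and 4 had none. With at least 10 CPM required, 7 had all 3 and 3 had none. Cell 11 was among the 7 at 10 CPM through 1 Oas1a read, since a single read passes that limit at its depth.

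Which pair shared the most cells depended on the limit. At 1 read it was Rtp4 and Oas1a. All 12 cells with Oas1a reads had Rtp4 reads, 4 had Rtp4 alone of this pair and 4 had neither. With at least 5 reads required, 9 cells had both, 4 had Rtp4 alone and 1, cell 1, had Oas1a alone, so the nesting of Oas1a in Rtp4 held at the lower limit and not at the higher one. For Rtp4 and Oasl2, 11 cells had both, 5 had Rtp4 alone, 2 had Oasl2 alone and 2 had neither. With at least 5 reads required, this pair shared 10 cells, 1 more than Rtp4 and Oas1a, and at 10 CPM both pairs shared 9. For Oasl2 and Oas1a, 9 cells had both, 4 had Oasl2 alone, 3 had Oas1a alone and 4 had neither.

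The highest cells differed from gene to gene. Among the 5 highest cells of each gene, every pair of genes shared 1 cell: cell 5 for Rtp4 and Oasl2, cell 4 for Rtp4 and Oas1a, and cell 6 for Oasl2 and Oas1a. No cell was among the 5 highest for all 3. How many cells unrelated genes would share was not worked out, here or for the cells with reads of both genes. Cell 19 had 1130 reads of Rtp4 and none of Oasl2 or Oas1a, at a depth where 3 reads are 2.72 CPM. Cell 12 had 174 CPM of Oasl2 and no read of Rtp4 or Oas1a. Cell 15 had 663 reads of Oasl2, 37 of Rtp4 and 2 of Oas1a. Cells 13 and 14 had 166 and 119 CPM of Rtp4, 204 and 266 of Oas1a and no read of Oasl2. Cell 5 was above the with-MK median for all 3 by a wide margin, with 488, 689 and 152 CPM of Rtp4, Oasl2 and Oas1a. Cells 3 and 20 were above all 3 medians as well. In the same order they had 401.8, 52.2 and 24.6 CPM and 527.7, 87.3 and 27.45 CPM. Cell 17 had 143.7 CPM of Oasl2 and 184.5 of Oas1a, but its 45.6 of Rtp4 was close to the median of 41.8. The with-MK cells thus included cells with 1 gene high and the others at 0, and cells with all 3.

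**Figure D2:**
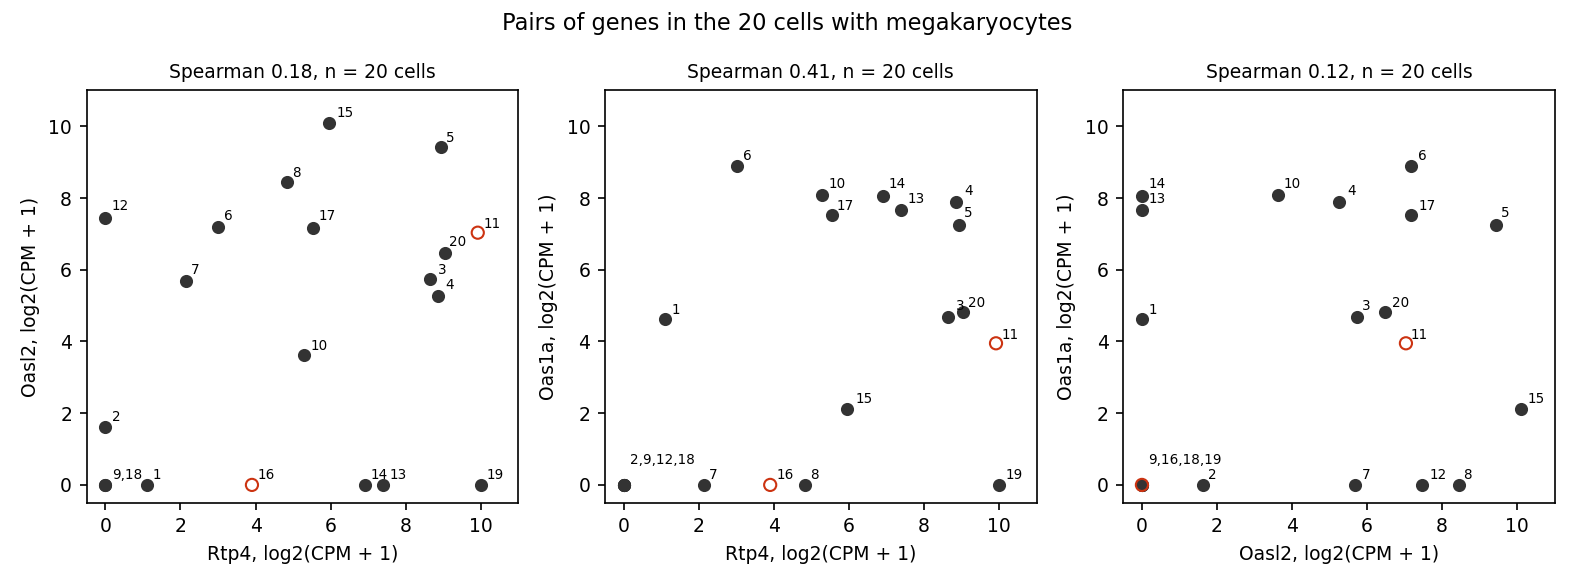
Levels of each pair of genes in the 20 with-MK cells as log2(CPM + 1), 1 point per cell with its number, and the 2 shallowest cells as open circles. Points lie on the axes as well as inside each panel, and the Spearman correlations are 0.18, 0.41 and 0.12.

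Across the 20 with-MK cells, the Spearman correlation was 0.41 for Rtp4 and Oas1a, 0.18 for Rtp4 and Oasl2 and 0.12 for Oasl2 and Oas1a. Pearson correlations of log2(CPM + 1) were 0.47, 0.28 and 0.17. These describe cells that share a plate, and no p is given. With each cell left out in turn, the first ran from 0.34 to 0.55, the second from 0.10 to 0.31 and the third from 0.05 to 0.21. Leaving out cell 19 gave the highest value for both pairs with Rtp4. Among the cells with reads of both genes of a pair, the correlations were −0.32 for Rtp4 and Oas1a (12 cells), 0.05 for Rtp4 and Oasl2 (11 cells) and −0.33 for Oasl2 and Oas1a (9 cells). The positive correlation of Rtp4 and Oas1a thus came with the cells in which 1 or both were at 0, not with matching levels in cells that had both. Over all 44 cells together the values were 0.72, 0.55 and 0.47, which hold the difference between the plates.

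Other genes of the table gave the scale for these values. Of the 2203 other genes read in 10 or more of the 20 cells, 106 (4.81%) correlated with Rtp4 at least as highly as Oas1a did, and 106 with Oas1a at least as highly as Rtp4 did. For Oasl2, 691 genes (31.4%) were at or above its correlation with Rtp4 and 909 (41.3%) at or above that with Oas1a. Oas1a thus ranked in the upper part of the genes most like Rtp4, and Oasl2 did not stand apart from the bulk for either. At 0.5 or above were 48 of the 2203 genes for Rtp4 (2.18%), 70 for Oasl2 (3.18%) and 44 for Oas1a (2.00%), and no pair of the 3 genes reached it. These lists of genes shared 5 members between Rtp4 and Oas1a (10.4% and 11.4% of each), 2 between Rtp4 and Oasl2 (4.17% and 2.86%) and 3 between Oasl2 and Oas1a (4.29% and 6.82%). Arrb2, which encodes a beta-arrestin, was in all 3 lists, with only 70 reads in with-MK cells.

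**Figure D3:**
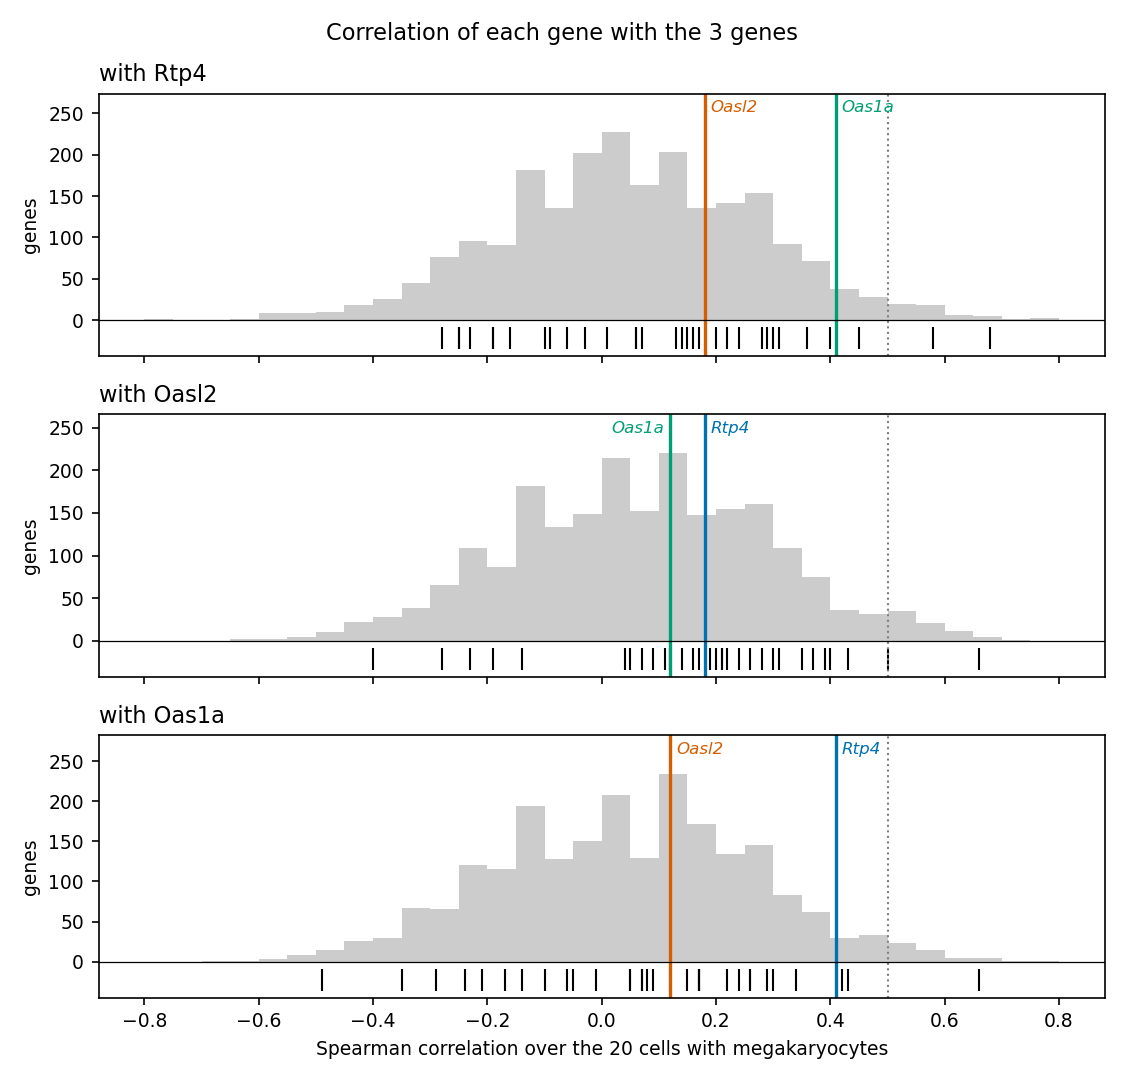
Number of genes at each Spearman correlation with Rtp4, Oasl2 and Oas1a over the 20 with-MK cells (grey bars, 2203 genes per panel). Coloured lines mark the other members, black ticks the 32 other interferon-stimulated genes and the dotted line 0.5, and no coloured line reaches it.

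The genes most like the 3 by the mean of their correlations were Arrb2 (mean 0.58), Rgs1 (0.52), Emc7 (0.48), Scp2 (0.46), Eef1a1 (0.44), Lrrc58 (0.43), Psma4 (0.43), Stag2 (0.42), Rps14 (0.42) and Faim (0.41). Rgs1, a regulator of G-protein signalling in leukocytes, had correlations of 0.35 with Rtp4, 0.70 with Oasl2 and 0.49 with Oas1a, and stood at 1206 and 0.0805 CPM. Eef1a1, the translation elongation factor, had correlations of 0.25, 0.30 and 0.79. Although Stag2 also reached 0.55 with Oas1a, the 3 genes most like each single member were not among the 3 of another member. They were Gclm (0.77), Ndufc2 (0.75) and Stag2 (0.74) for Rtp4, Rgs1 (0.70), Senp3 (0.68) and Hnrnpu (0.67) for Oasl2, and Eef1a1 (0.79), Nptn (0.72) and Faim (0.69) for Oas1a. No gene of the interferon lists was among the 10 named by the mean or the 3 named for any member. Lap3 and AI607873 of those lists came close, each with a mean of 0.41, equal at this rounding to that of Faim. Trim30a had a mean of 0.38.

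The share of a cell's reads that fell in the listed genes moved with Oas1a, at a Spearman correlation of 0.67, and at 0.13 with Rtp4 and 0.17 with Oasl2. Library reads had correlations of 0.12 with Rtp4, −0.05 with Oasl2 and −0.12 with Oas1a. The summed level of macrophage markers had −0.19, 0.09 and −0.14, in the same order. The summed level of the 3 listed neutrophil markers of 13, at 0 to 3622 CPM in with-MK cells and 0 to 37.7 in without-MK cells, had −0.44, 0.16 and −0.29. The part of these quantities in the patterns was not tested.

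The other members of the families were read in few cells. Of 11 further genes of the oligoadenylate synthetase and RNase L list, 4 were listed, and none had a read in 10 of the 20 with-MK cells. Oas3, which encodes a larger synthetase, had 465 reads in 5 with-MK cells, of which cell 8 held 85.0%, a cell without an Oas1a read. Oas2 had 168 reads in 4 cells, with 56.0% in cell 10, the second highest cell for Oas1a. Oas1g had 3 reads in 2 cells and Oasl1 had 3 reads, all in cell 6. In without-MK cells these 4 genes had 1, 1, 0 and 1 reads. Of the receptor transporter genes other than Rtp4, 0 of 3 were among the listed genes.

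Upstream genes of the pathway were described from lists written with earlier results of these data known. Counts of higher and lower genes use pooled levels with a limit of 2-fold and sums under 3 reads set to 3, and they again set macrophage against stromal transcripts. Over all genes, 794 of 3268 were higher and 925 lower by this limit. None of 21 interferon genes was among the listed genes, so the ligands were not analysed here. Of 6 receptor genes, 5 were listed, and each was 2-fold or more above the without-MK level. The median log2 ratio of the list was 2.29, against −0.14 over all genes. Ifnar1, a chain of the type I interferon receptor, stood at 1121 and 197 CPM and was read in 20 of 20 with-MK cells, among them cells 9 and 18. Its correlations were −0.07 with Rtp4, 0.42 with Oasl2 and 0.14 with Oas1a. Ifngr2, of the interferon gamma receptor, stood at 191 and 84.1 CPM, and Il10rb, shared by the receptors of type III interferons and interleukin-10 relatives, at 351 and 23.4.

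Of 10 genes of JAK-STAT signalling, 4 were listed. Jak1 (336 and 285 CPM) and Stat6 (192 and 108), which serves interleukin-4 signalling, were within 2-fold. Of 12 interferon regulatory factors and cofactors, 5 were listed, with 4 higher and 1, Irf2bp2, within 2-fold. Irf9, a DNA-binding partner of STAT proteins, stood at 93.6 and 2.17 CPM, with correlations of −0.09 with Rtp4, 0.37 with Oasl2 and −0.35 with Oas1a. Irf7, itself induced by interferon, stood at 44.1 and 0.322 CPM, with 73.0% of its reads in cell 5, and had correlations of 0.30, 0.43 and 0.07. The members of the receptor, JAK-STAT and regulatory factor lists were thus below 0.5 with each of the 3 genes wherever they are named here.

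Of 27 nucleic acid sensors and adaptors, 6 were listed and 4 tested, with 3 higher and 1 lower, beside 794 of 3268 higher over all genes. Ifih1, the RNA sensor MDA5 and itself interferon-induced, had 2299 reads, spread over 12 with-MK cells, with no read in the other group, and correlations of 0.06, 0.21 and 0.08. The kinase Tbk1, which phosphorylates interferon regulatory factors, stood at 313 and 77.3 CPM, and Tlr13, which senses bacterial ribosomal RNA, at 307 and 0.0805. Of 18 negative regulators, 6 were listed, with 4 higher and 2 within 2-fold. The phosphatase Ptpn6 stood at 653 and 0.161 CPM, the nucleotide hydrolase Samhd1 at 257 and 28.3 and the exonuclease Trex1 at 61.7 and 4.51.

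The other interferon-stimulated genes were mostly higher in with-MK cells. Of 69 listed, 43 were read in 10 or more of the 44 cells, and 38 of these were at least 2-fold higher, 3 within 2-fold and 2, Lap3 and Zc3hav1, lower. Their median log2 ratio was 4.18, against −0.14 over all genes, of which 794 of 3268 were at least 2-fold higher. A gene can be among the 43 through with-MK cells alone, as Ifih1 and Trim30a were with no read in without-MK cells. For such a gene the direction was fixed by the limit of 10 cells. Others passed it mainly through with-MK cells, such as AI607873 (read in 20 with-MK cells and 1 without-MK cell) and Irf9 (14 and 2). The limit thus favoured the higher direction, and how many of the 38 it touched was not counted. A with-MK cell had reads of 21 to 46 of the 69 (median 33) and a without-MK cell of 9 to 22 (median 12.5). Cells 9 and 18, which lacked all 3 members, had reads of 34 and 26 of the 69. They had 21 and 19 at 10 CPM or more, below the with-MK median of 24.5 and within the range of 16 to 35. Cells 3 and 20 had 35 at that level. Cell 11 had 35 too, but at its depth any gene with 1 read passes 10 CPM, so its number equals that of genes with a read. A pair of genes often used to mark an interferon response were rare, with Ifit1 at 290 reads in 4 with-MK cells (89.3% in cell 17) and Isg15 at 336 reads in 4 (79.8% in cell 12), and no read of either in without-MK cells.

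Cell to cell, few of these genes reached a correlation of 0.5 with the 3 genes. Another 32 interferon-stimulated genes were read in 10 or more with-MK cells. Of them, 2 had a correlation of at least 0.5 with Rtp4, 2 with Oasl2 and 1 with Oas1a. These shares were 6.25%, 6.25% and 3.13%, against 2.18%, 3.18% and 2.00% over all genes read that widely. Each share rests on only 1 or 2 genes, too few to set the list apart from all genes. The medians over the 32 were 0.13, 0.20 and 0.08, against 0.05, 0.07 and 0.05 over all genes, and 21, 27 and 21 of the 32 were above 0. With Rtp4 the genes at 0.5 or above were the aminopeptidase Lap3 (0.68) and Bst2 (0.58), the membrane protein tetherin. With Oasl2 they were Trim30a (0.66) and Slfn5 (0.50), and with Oas1a AI607873 (0.66). Bst2, Slfn5 and Zc3hav1 are named after their values were seen. Each of the 5 genes passed 0.5 with a single member, and whether its correlations with the 3 differ was not tested. Trim30a, of the tripartite motif family, had 6397 reads, spread over 15 with-MK cells, with no read in the other group, while AI607873 stood at 551 and 0.0805 CPM and Lap3 at 60.3 and 168.5.

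The number of other interferon-stimulated genes at 10 CPM or more in a cell moved with Oasl2 at a Spearman correlation of 0.64, with Rtp4 at 0.45 and with Oas1a at 0.17. Without the 2 shallowest cells the values were 0.66, 0.38 and 0.15. That number itself had a correlation of 0.37 with the number of listed genes read in the cell and of −0.03 with library reads. Among the 496 pairs of the 32 genes, 21 were at 0.5 or above (4.23%), against 2.81% of all 2427706 gene pairs, and the medians were 0.07 and 0.06. Weak correlation between cells was thus common to the list as a whole and not seen in Rtp4, Oasl2 and Oas1a alone.

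**Figure D4:**
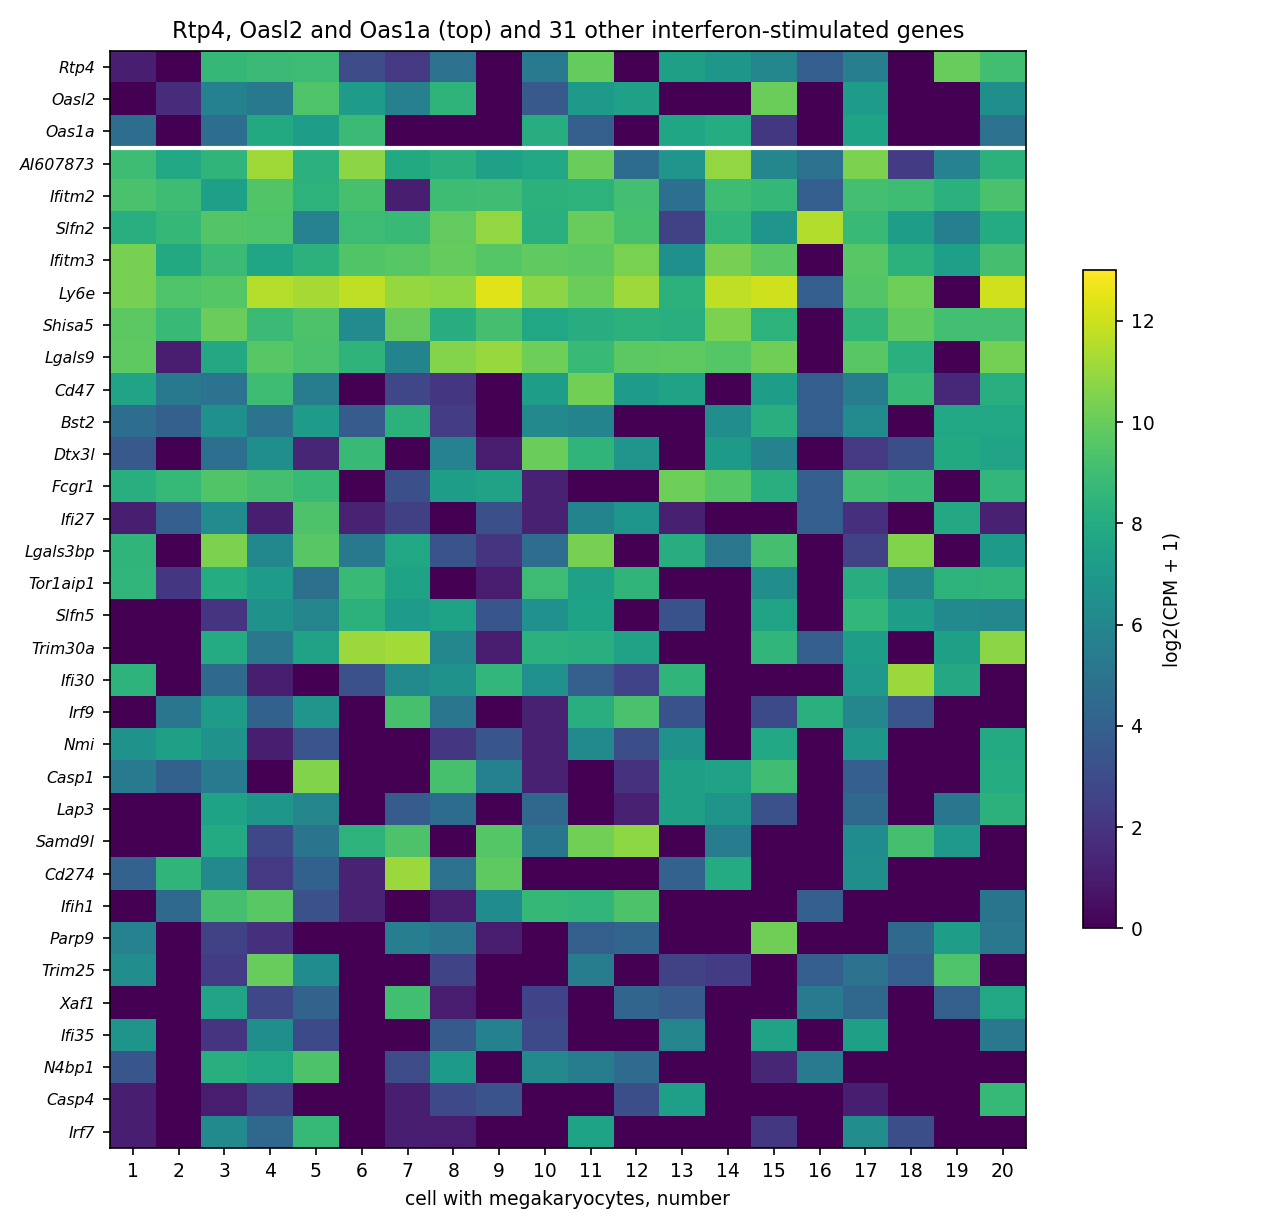
Level of Rtp4, Oasl2 and Oas1a (above the white line) and of 31 other interferon-stimulated genes read in 10 or more of the 20 with-MK cells, as log2(CPM + 1), 1 column per cell. Cells 9 and 18 are at 0 for all 3 genes in the top rows and carry several of the genes below, and no column is bright or dark throughout.

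Antigen presentation and inflammatory genes, which interferon also affects, were described the same way. Over all genes, 794 of 3268 were 2-fold or more higher and 925 lower. Of 25 class I genes, 14 were listed and 11 tested, with 8 higher and 3 within 2-fold. B2m, the light chain of class I molecules, stood at 1739 and 399 CPM, with correlations of 0.26, 0.40 and 0.24. H2-T23, a nonclassical class I gene, had a correlation of 0.57 with Rtp4, 0.06 with Oasl2 and 0.11 with Oas1a. All 3 tested class II genes were higher. Of these, Cd74 was read in 20 with-MK cells and 1 without-MK cell and H2-DMa in 15 and 2. They were thus tested mainly through with-MK cells, which favoured that direction. H2-DMa, which loads peptides on class II molecules, had correlations of −0.56, 0.23 and −0.10, and the invariant chain Cd74 −0.11, 0.27 and 0.20. Of 9 tested genes of the NF-kB and inflammatory list, 6 were higher, 1 lower and 2 within 2-fold. The chemokine Ccl2 had correlations of 0.10, 0.13 and 0.55, and Ccl7 0.37, −0.02 and 0.38. Irgm1, an interferon-inducible GTPase and the tested one of 2 listed, stood at 93.0 and 3.79 CPM.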

How the data were processed

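Single cells were captured on a Fluidigm C1 system, cDNA was made with a SMART-Seq v4 kit and libraries with Nextera XT, and 150 b paired-end reads were taken, per the labels' protocols. The submitters' processing notes name the mm10 build and Seurat. Which aligner, counter and annotation served is not given in the sources used here. The deposited values are a signal: the read number of each gene over the product of the cell's library reads and a gene-specific whole number, a form worked out from the values. All 99807 values above 0 gave whole reads at a tolerance of 0.0001 reads. CPM means recovered reads × 1e+06 / library reads and is not a deposited unit. The recovery was also run on data simulated in this same form, which cannot check whether the form is right. All cells were kept, without doublet calling or clustering.

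Cells were grouped by the treatment label. No count model, test or p was used, since each group is 1 sample. Intervals are exact at 95%. Those of reads and ratios cover counting error only, and reads without molecular identifiers are not independent molecules. Those of shares of cells take the cells of 1 sample as independent draws and do not measure the spread between cultures. Correlations used log2(CPM + 1), over genes read in 10 or more of the 20 with-MK cells. Besides the 3 genes, a rule picked the 10 with the highest mean correlation with them, the 3 highest per member and the 3 highest in each list. Predicted genes were passed over. Genes named outside this rule include Oas2, Oas3, Oas1g, Oasl1, Ifit1, Isg15, Irgm1, Bst2, Slfn5, Zc3hav1 and marker genes. The members and lists were chosen with earlier results of these data known. Python 3.11.15, numpy 2.4.6, pandas 2.3.3, scipy 1.17.1 and matplotlib 3.10.9 were used. 1 gene of the lists is not reported here. Alternatives were other totals, size factors, the deposited signal, detection limits, thinning, cells left out and Pearson correlation.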

Additional observations from a re-analysis of the deposited data

How the results depend on the processing

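The pooled log2 ratios kept their direction under all 5 alternatives: 9.25 to 11.79 for Rtp4, 8.81 to 9.34 for Oasl2 and 9.00 to 9.91 for Oas1a. The 9.25 rests on a floor of 3 reads. Of the 20 with-MK cells 9 had all 3 genes, against 7 at 5 reads, 7 at 10 CPM, 7 of 18 after thinning and 8 of 18 without the 2 shallowest cells. With each cell left out in turn, the correlations ran from 0.10 to 0.31 for Rtp4 and Oasl2, 0.34 to 0.55 for Rtp4 and Oas1a and 0.05 to 0.21 for Oasl2 and Oas1a. Over cells with reads of both genes they were 0.05, −0.32 and −0.33, and over both groups together 0.55, 0.72 and 0.47, where other cells enter. After thinning, Oasl2 and Oas1a gave −0.02, against 0.12, and the cause was not tested. No paired analysis was possible because each group is 1 sample and the numbers only name cells. Depth limits cells 11 and 16, where 3 reads are 43.4 and 41.9 CPM.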

Other observations

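The whole number by which the deposited values divide the reads of a gene was 606 for Rtp4, 543 for Oasl2 and 336 for Oas1a. What this number stands for is not stated. Over the 3613 genes its median was 33, and 499 genes had 1. It was 12678 for Actb and 32329, the highest, for Fth1. The listed macrophage markers had a median of 197 and the listed osteoblast and fibroblast markers a median of 1. Across the 3613 genes, its Spearman correlation with the reads of single cells was 0.22 to 0.33 in with-MK cells and 0.12 to 0.21 in without-MK cells. For that reason no level of 1 gene was set against that of another in the deposited signal.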
